A study of Tribolium castaneum with 6 samples.

Results

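Snf1a is the gene of the red flour beetle Tribolium castaneum that encodes the catalytic α subunit of AMP-activated protein kinase (AMPK), and it was the gene targeted by double-stranded RNA (dsRNA) in this study, where it is called TcAMPKα. It was taken as every row with the gene name Snf1a in the transcript tables, which gave 1 gene of 15099 and 2 transcripts of 31944. RNA-Seq was carried out on whole larvae of the Georgia-1 strain. In the dsTcAMPKα group, 20-day-old larvae received about 200 ng of dsRNA made against part of the TcAMPKα coding sequence. In the dsEGFP group, larvae of the same strain and age received the same amount of dsRNA against EGFP, a fluorescent protein gene that beetles lack. All larvae of both groups were therefore injected with dsRNA and kept for 6 days. Each group had 3 biologically independent replicates, and each replicate was a pool of 10 unsexed larvae, so that neither sex nor single animals nor tissues can be told apart. The replicate numbers used below only name the libraries.

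AMPK is a sensor of cellular energy. It is a complex of a catalytic α subunit, a β subunit that holds the complex together and binds glycogen, and a γ subunit that binds AMP, ADP and ATP. When energy is low, the kinase LKB1 phosphorylates the α subunit, and active AMPK slows fatty acid, sterol and glycogen synthesis and TOR signalling, and promotes autophagy and the use of stored fuel. RNA interference lowers the messenger RNA of the targeted gene, so the Snf1a transcripts are also a check of the group labels.

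The dsRNA was transcribed from a PCR product whose primers define which part of Snf1a was targeted, and the study measured knockdown by RT-qPCR with another pair. These sequences are given 5′ to 3′ in lower case, with no base singled out by capitals, because they are the agent of the comparison and the independent assay of the same messenger RNA. Their positions within the transcripts were not analysed here.
dsRNA forward primer: gttcgggggttgattactgcc
dsRNA reverse primer: ggacttccttctcctgcaccc
RT-qPCR forward primer: acatccttggccagactttg
RT-qPCR reverse primer: gccgaaacagcttcaagttc
The dsRNA primers are 21 nt long each and the RT-qPCR primers 20 nt each, and no primer is shared by the pairs. FPKM counts fragments over the whole transcript and does not separate the targeted stretch from the rest.

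The libraries held between 33518139 and 37584930 estimated reads on the listed transcripts. On log2(FPKM + 1), dsEGFP replicate 3 stood apart, with root mean square differences of 0.87 and 0.90 from the other dsEGFP libraries, against 0.44 between those 2 libraries and 0.51 to 0.71 among the dsTcAMPKα libraries. Named results whose call changed without that library are given with and without it. Over 10981 tested genes the median log2 fold change was 0.20, and other scalings shifted it by between -0.23 and 0.24. Summed markers of midgut lay between 1145 and 1231 FPKM in dsTcAMPKα libraries and between 941 and 1111 FPKM in dsEGFP libraries. Those of epidermis and cuticle lay between 360 and 582 FPKM in dsTcAMPKα libraries and between 344 and 508 FPKM in dsEGFP libraries, and those of nervous system and eye between 75.3 and 87.1 FPKM in dsTcAMPKα libraries and between 83.6 and 112 FPKM in dsEGFP libraries. Of these 17 markers, 16 were above 0 in every library and none was at 0 throughout. The part that the midgut difference plays in the results was not tested.

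Snf1a was reduced in every dsTcAMPKα library. Its summed FPKM was 10.7, 7.32 and 16.3 in dsTcAMPKα replicates 1, 2 and 3, against 77.3, 74.9 and 56.9 in dsEGFP replicates 1, 2 and 3. The highest dsTcAMPKα library lay below the lowest dsEGFP library, with a gap of 1.75 on the log2(FPKM + 1) scale. The mean was 11.4 ± 4.51 FPKM in the dsTcAMPKα group and 69.7 ± 11.1 FPKM in the dsEGFP group (SD, n = 3 each). The mean in the dsEGFP group was thus 6.09 times that in the dsTcAMPKα group. With limma on log2(FPKM + 1), a scale that understates changes at low FPKM, Snf1a fell by 2.56 on the log2 scale (standard error 0.29, 95% confidence interval -3.25 to -1.87, adjusted p = 0.0164). A gene was called when the Benjamini-Hochberg adjusted p was under 0.05 and the absolute log2 fold change above 1, and 2.71% of all tested genes were called lower by this rule. For the difference of mean FPKM alone, the two-sided exact permutation test gave p = 0.1, the smallest that 3 libraries against 3 allow. Without dsEGFP replicate 3 the log2 fold change was -2.70 (limma, adjusted p = 0.0084). The adjusted p was 0.0594 without dsEGFP replicate 2, 0.0885 without dsTcAMPKα replicate 1 and 0.0943 without dsTcAMPKα replicate 2, so that limma no longer called the gene in these 3 fits. It was still called without dsEGFP replicate 1 (adjusted p = 0.0413) and without dsTcAMPKα replicate 3 (adjusted p = 0.0295), and the change stayed at or below -2.30 with each library left out.

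In whole larvae, fewer cells that express the gene and less RNA per cell cannot be told apart. The number of reads behind the values was not small. Coverage multiplied by transcript length gave 806, 514 and 1088 estimated reads on Snf1a in dsTcAMPKα replicates 1, 2 and 3, against 5618, 5125 and 4228 in dsEGFP replicates 1, 2 and 3.

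Almost all of the Snf1a signal belonged to a single transcript. The annotated transcript (rna16959) lies on sequence NC_007422.5 of the Tcas5.2 genome, plus strand, from 13631801 to 13634048, with 3 exons and 1943 nt. The other transcript (MSTRG.8931.1) was put together by the authors' assembly. It ends at the same base, starts 668 nt further upstream at 13631133, and has 4 exons and 1946 nt.

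**Figure D1:**
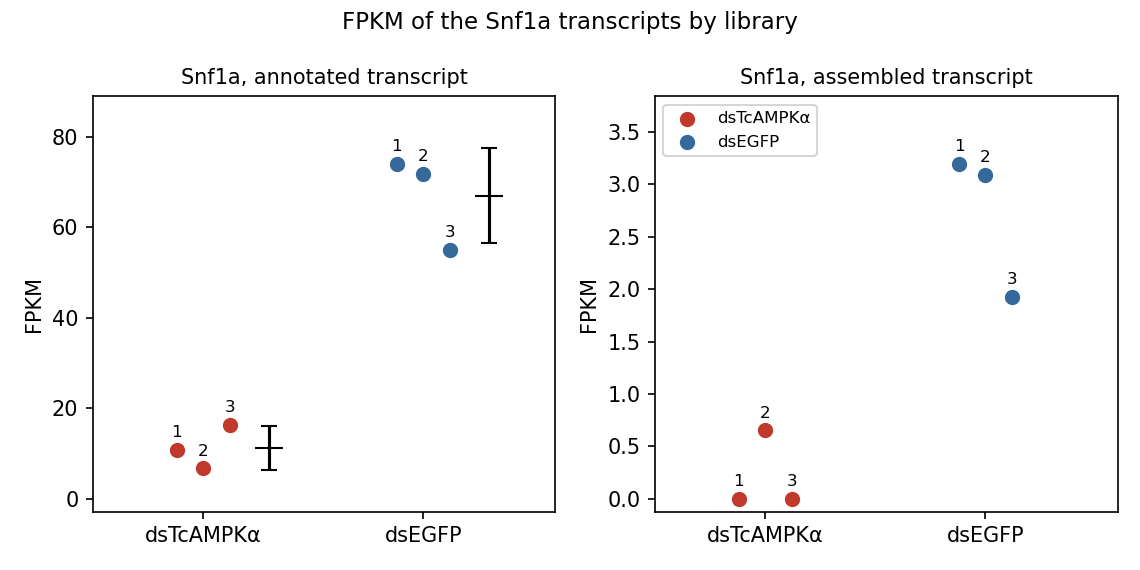
FPKM of the annotated (left panel) and the assembled (right panel) Snf1a transcript in dsTcAMPKα (red) and dsEGFP (blue) libraries, with the replicate number above each point; the black lines in the left panel are the mean and SD of 3 libraries. The panels differ in scale: the annotated transcript reached 16.3 FPKM at most in dsTcAMPKα libraries and 55.0 FPKM at least in dsEGFP libraries, and the assembled transcript never exceeded 3.20 FPKM.

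The annotated transcript had 10.7, 6.67 and 16.3 FPKM in dsTcAMPKα replicates 1, 2 and 3, against 74.1, 71.8 and 55.0 FPKM in dsEGFP replicates 1, 2 and 3. Its mean coverage was 62.2, 36.2 and 84.0 reads per base in the dsTcAMPKα libraries, against 416, 379 and 315 reads per base in the dsEGFP libraries. The groups did not overlap in either quantity. The transcript fell by 2.54 on the log2 scale (standard error 0.32, limma over 18283 transcripts, adjusted p = 0.0280), where 0.995% of transcripts were called lower.

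The assembled transcript was scarce throughout. It was listed at 0 FPKM in dsTcAMPKα replicates 1 and 3 and at 0.653 FPKM in replicate 2, against 3.20, 3.09 and 1.93 FPKM in dsEGFP replicates 1, 2 and 3. The groups did not overlap. Its log2 fold change was -1.64 (standard error 0.32), and it did not pass the limma test (adjusted p = 0.0521). It passed with median-ratio scaling, at -1.73, and without dsEGFP replicate 3, at -1.81 (adjusted p = 0.0292), and with a pseudocount of 0.1 FPKM in place of 1 the value was -3.82 (adjusted p = 0.0916), so its size depends on how zeros are treated.

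The annotated transcript accounted for 100%, 91.1% and 100% of Snf1a FPKM in dsTcAMPKα replicates 1, 2 and 3, against 95.9%, 95.9% and 96.6% in dsEGFP replicates 1, 2 and 3. The dsTcAMPKα values lay on both sides of the dsEGFP values. The mean share was 97.0% ± 5.15 in the dsTcAMPKα group and 96.1% ± 0.431 in the dsEGFP group (SD, n = 3 each, two-sided exact permutation test, p = 1.0). No shift between the transcripts was detectable with these libraries.

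The depth of the knockdown differed between libraries. Relative to the dsEGFP mean, 15.4%, 10.5% and 23.3% of Snf1a FPKM remained in dsTcAMPKα replicates 1, 2 and 3, and the mean was 16.4% ± 6.47 (SD, n = 3). Replicate 3 thus kept 2.22 times as much Snf1a as replicate 2. The coefficient of variation of Snf1a was 39.4% over the dsTcAMPKα libraries and 16.0% over the dsEGFP libraries. On the log2(FPKM + 1) scale, the range of Snf1a was 1.05 over the dsTcAMPKα libraries, wider than that of 91.5% of tested genes there, and 0.43 over the dsEGFP libraries, wider than that of 33.4% of tested genes.

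**Figure D2:**
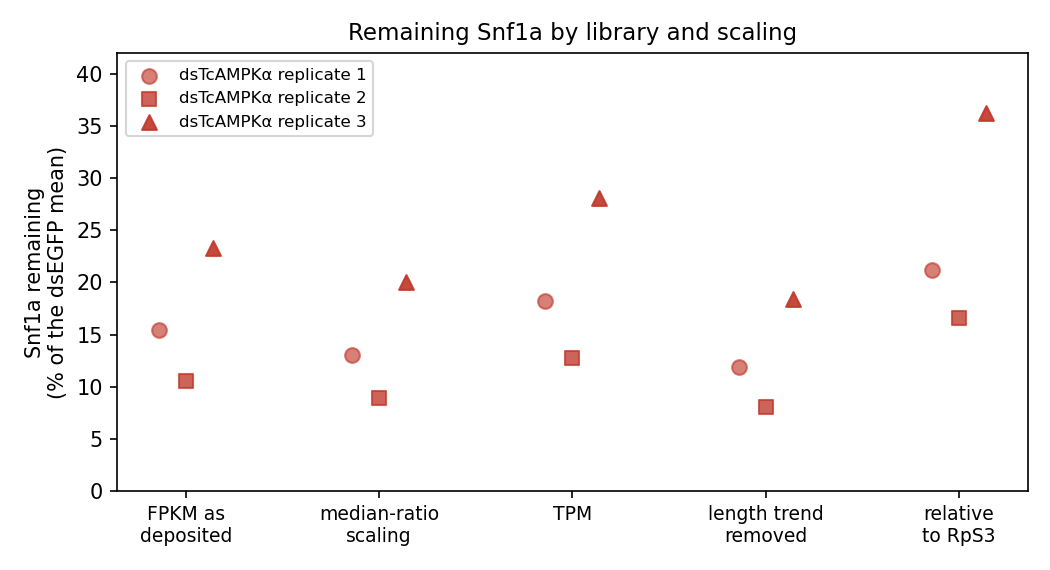
Snf1a remaining in each dsTcAMPKα library as a percentage of the dsEGFP mean, under 5 scalings of the same values; the symbols stand for the replicates. Replicate 2 was lowest and replicate 3 highest under each scaling, and the values relative to RpS3 were the highest.

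The order of the libraries was the same under each of these scalings, while the level was not. With median-ratio scaling 13.1%, 8.88% and 20.0% of Snf1a remained in dsTcAMPKα replicates 1, 2 and 3, and as TPM, which divides by length and then sets each library to the same total, 18.2%, 12.7% and 28.1%. After removal of a trend on transcript length the values were 11.9%, 8.08% and 18.4%. RpS3, a protein of the small ribosomal subunit whose transcript the study used as the RT-qPCR reference, had 761, 664 and 674 FPKM in dsTcAMPKα replicates 1, 2 and 3, against 1005, 1006 and 1174 FPKM in dsEGFP replicates 1, 2 and 3. The groups did not overlap for RpS3, as for 13.6% of tested genes that were lower throughout. Its log2 fold change was -0.60 (limma, adjusted p = 0.0528). Relative to RpS3, 21.2%, 16.6% and 36.2% of Snf1a therefore remained in the 3 dsTcAMPKα libraries, a mean of 24.7% ± 10.3 (SD, n = 3). By RT-qPCR, the study reported a deeper mean reduction than any of these scalings gave. RT-qPCR and FPKM are unlike measures, and the reason for the difference was not tested.

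FPKM is a value per length, so levels may be set against those of other genes. In the dsEGFP libraries, Snf1a lay above 88.8%, 88.7% and 83.2% of tested genes in replicates 1, 2 and 3. In the dsTcAMPKα libraries, it lay above 38.0%, 27.9% and 49.6% of tested genes in replicates 1, 2 and 3. The knockdown was not the largest fall in the table: of the 298 genes called lower, 50 fell further than Snf1a on the log2 scale. Among the 106 genes called lower whose dsEGFP mean was at least that of Snf1a, 15 fell further.

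Snf1a was also set beside genes of protein phosphorylation, whose likeness to it was not measured. In a list of genes annotated with protein phosphorylation, of which only part was available, 52 were tested with Snf1a included. Snf1a had the second highest mean in dsEGFP larvae, where the median of the list was 8.03 FPKM. It ranked 25 in dsTcAMPKα larvae, where the median of the list was 10.3 FPKM. No gene of the list fell as far: the next value was -1.26 on the log2 scale for LOC103313943. Besides Snf1a, 51 genes of the list were tested, 3 were called higher and 1 lower, against 4.09% and 2.71% of all tested genes called higher and lower. The higher ones were Pkcdelta, a protein kinase C with a log2 fold change of 1.07, babo, an activin receptor with 1.04, and LOC103313170 with 1.30. Without dsEGFP replicate 3, babo was at 0.84 and no longer called.

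The partners of Snf1a in the AMPK complex were not called. Alc, the β subunit, had 63.4, 60.1 and 60.6 FPKM in dsTcAMPKα replicates 1, 2 and 3, against 56.5, 56.4 and 54.9 FPKM in dsEGFP replicates 1, 2 and 3. Its log2 fold change was 0.13 (95% confidence interval -0.16 to 0.42, limma, adjusted p = 0.461), and it changed sign to -0.09 with median-ratio scaling. SNF4Agamma, the γ subunit, had 125, 111 and 112 FPKM in the dsTcAMPKα libraries, against 77.7, 72.4 and 60.6 FPKM in the dsEGFP libraries. Every dsTcAMPKα library lay above every dsEGFP library for the γ subunit, as for 31.2% of all tested genes. Its log2 fold change of 0.72 (95% confidence interval 0.36 to 1.08, limma, adjusted p = 0.0306) was under the fold threshold. It was 0.50 (adjusted p = 0.1004) with median-ratio scaling and 0.30 after removal of the length trend. In the dsEGFP group the mean was 69.7 FPKM for the α subunit, 55.9 FPKM for the β subunit and 70.3 FPKM for the γ subunit. In the dsTcAMPKα group it was 11.4 FPKM for the α subunit, 61.4 FPKM for the β subunit and 116 FPKM for the γ subunit.

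The kinase that activates AMPK and its scaffold showed small differences. Lkb1 had 10.2, 9.79 and 10.6 FPKM in the dsTcAMPKα libraries, against 8.13, 6.60 and 9.43 FPKM in the dsEGFP libraries, with a log2 fold change of 0.32 (limma, adjusted p = 0.220) that was -0.03 after removal of the length trend. Mo25, which holds LKB1 in its active form, had 61.5, 58.5 and 54.8 FPKM in the dsTcAMPKα libraries, against 42.4, 40.2 and 36.2 FPKM in the dsEGFP libraries. The difference of 0.55 on the log2 scale (limma, adjusted p = 0.0407) was under the fold threshold. Of these 4 genes 0 were called by limma, 2 had an unadjusted p under 0.05, and limma-voom on estimated reads called 0. Their median log2 fold change was 0.43, against 0.20 over all tested genes. After removal of the length trend it was 0.20, against -0.005 over all tested genes.

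**Figure D3:**
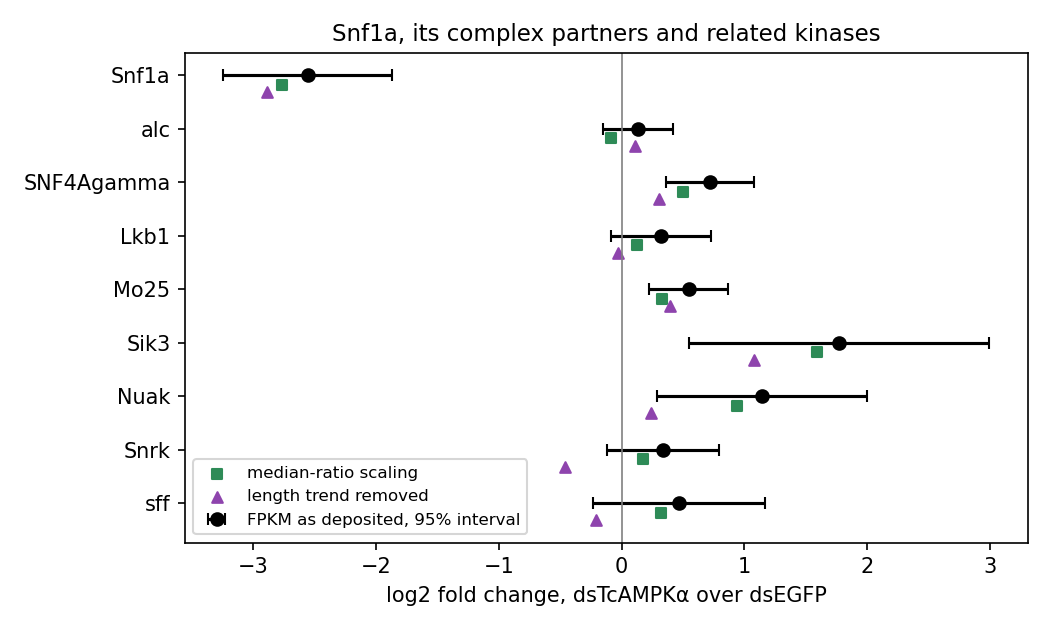
Log2 fold change, dsTcAMPKα over dsEGFP, of Snf1a, the AMPK β (alc) and γ (SNF4Agamma) subunits, Lkb1 and its scaffold Mo25, and 4 AMPK-related kinases. Circles with bars are limma estimates on log2(FPKM + 1) with 95% confidence intervals, squares are estimates with median-ratio scaling and triangles those after removal of the length trend; Snf1a stands alone on the left at -2.56.

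Kinases of the same family as AMPKα were examined because dsRNA can act on genes of similar sequence, although the similarity itself was not analysed here. Sik3, a salt-inducible kinase, had 6.57, 6.26 and 8.87 FPKM in dsTcAMPKα libraries, against 3.22, 2.07 and 0.048 FPKM in dsEGFP replicates 1, 2 and 3. The lowest value by far was that of dsEGFP replicate 3, and the log2 fold change of 1.77 did not pass the limma test (adjusted p = 0.0595). Without that library it was 1.18, and Sik3 was called (adjusted p = 0.0162). Nuak had a log2 fold change of 1.14 (limma, adjusted p = 0.0712), Snrk 0.34 (adjusted p = 0.241) and sff 0.47 (adjusted p = 0.288). All 4 had a higher mean in the dsTcAMPKα group on FPKM as deposited, while Snrk at -0.46 and sff at -0.20 turned negative after removal of the length trend. Of the 4 kinases 0 were called by limma on FPKM as deposited, 2 had an unadjusted p under 0.05, limma-voom called 0, and limma on TPM called 2, Sik3 at 2.13 and Nuak at 1.42. The lower bounds of their 95% confidence intervals were 0.55 for Sik3, 0.29 for Nuak, -0.12 for Snrk and -0.23 for sff on the log2 scale.

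Snf1a overlaps its neighbours, which bears on what its reads and theirs can show. Start1 (LOC663370), a relative of the lipid-transfer protein StAR, lies upstream on the minus strand from 13628845 to 13631666. It ends 134 nt before the annotated Snf1a transcript starts, and it overlaps the assembled transcript over 534 nt. LOC103313851 lies downstream on the minus strand from 13634021 to 13636074 and overlaps both Snf1a transcripts over 28 nt at their 3′ end. The library protocol does not state that strand was kept, and reads within these overlaps cannot be assigned to a strand from the deposited values.

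**Figure D4:**
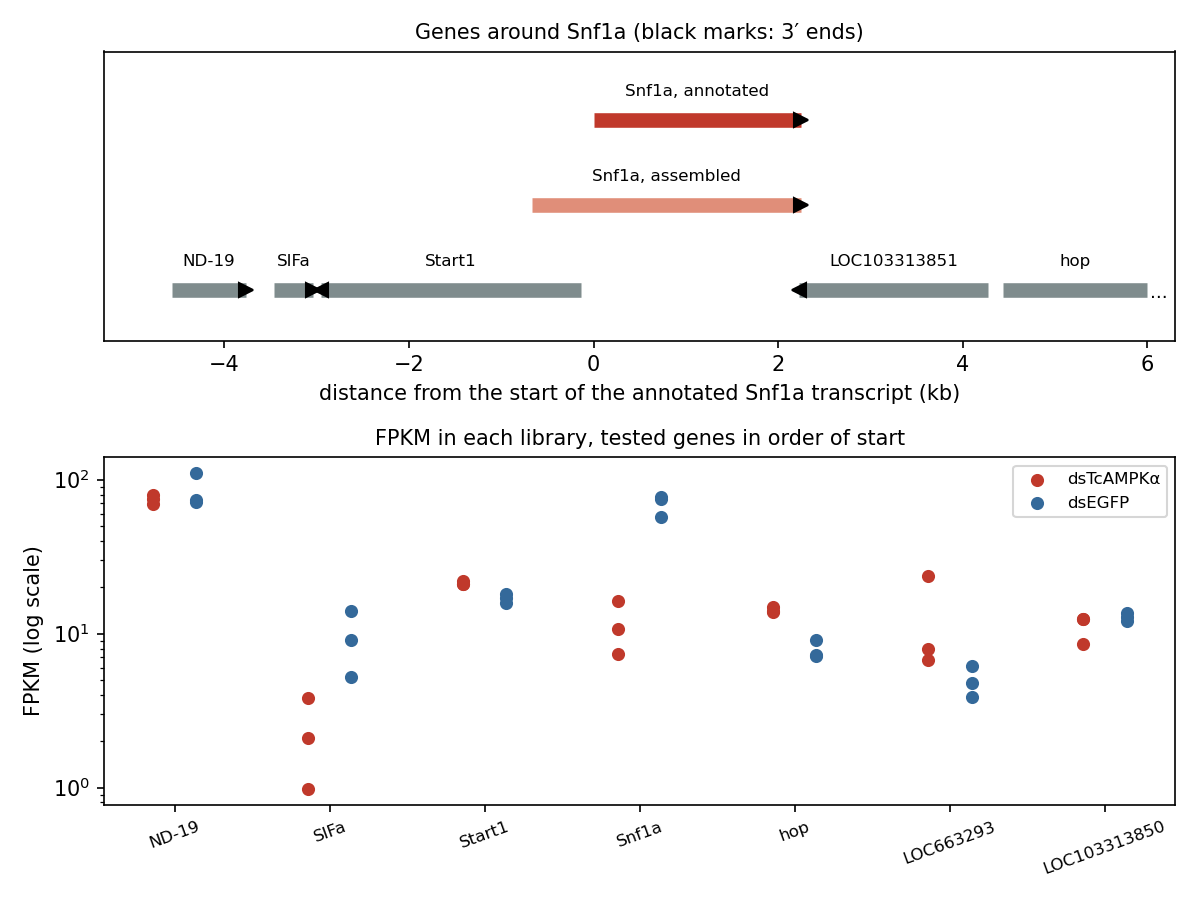
Upper panel: genes around Snf1a, by distance in kb from the start of the annotated Snf1a transcript, with black arrowheads at 3′ ends and dots where a gene runs past the panel. Lower panel: FPKM on a log axis of Snf1a and its 6 tested neighbours in each dsTcAMPKα (red) and dsEGFP (blue) library; the drop of Snf1a is not seen in Start1, which borders it.

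Start1 had 21.1, 21.1 and 22.0 FPKM in dsTcAMPKα replicates 1, 2 and 3, against 18.1, 15.9 and 17.1 FPKM in dsEGFP replicates 1, 2 and 3. Its values did not follow the drop of Snf1a. The log2 fold change of 0.31 (limma, adjusted p = 0.138) lost its sign, at -0.07, after removal of the length trend. LOC103313851 had 1.43, 0.822 and 1.08 FPKM in dsTcAMPKα libraries, against 0.554, 0.501 and 0.505 FPKM in dsEGFP libraries, and its mean was too low for the test.

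Of the 5 named genes on each side of Snf1a, 6 were tested, and 1 was called, against 6.8% of all tested genes. This was SIFa (LOC100142131), which encodes a neuropeptide of insects and starts 2798 nt before the start of Snf1a. SIFa had 2.10, 3.84 and 0.983 FPKM in dsTcAMPKα replicates 1, 2 and 3, against 9.04, 14.0 and 5.22 FPKM in dsEGFP replicates 1, 2 and 3. The groups did not overlap, as for 13.6% of tested genes that were lower throughout, and the log2 fold change was -1.66 (standard error 0.43, limma, adjusted p = 0.0470). The call was lost with median-ratio scaling, at -1.83 with an adjusted p of 0.0512, and after removal of the length trend, at -1.06. It was also lost with a pseudocount of 0.1 FPKM, without the filter on low values and with limma-voom, and kept with TPM and with quantile normalization. Nervous system and eye markers, given above, were also lower on the whole in dsTcAMPKα larvae with overlapping ranges, and their part in this result was not tested. Among the dsTcAMPKα libraries SIFa was lowest in replicate 3, where Snf1a was highest.

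The other neighbours were not called. ND-19 (LOC663406), a subunit of mitochondrial complex I, had 79.1, 74.9 and 69.7 FPKM in dsTcAMPKα libraries, against 73.4, 71.0 and 110 FPKM in dsEGFP libraries. Hop (LOC663273), the JAK kinase of insects, had 15.0, 14.1 and 13.7 FPKM in dsTcAMPKα libraries, against 9.07, 7.23 and 7.20 FPKM in dsEGFP libraries. Its log2 fold change of 0.79 (limma, adjusted p = 0.0281) was under the fold threshold, and was 0.12 after removal of the length trend, while hop was called with TPM at 1.06 (adjusted p = 0.0136). LOC663293 had log2 fold changes of 1.03 (limma, adjusted p = 0.150) and LOC103313850 of -0.20 (adjusted p = 0.463). The remaining 4 genes had mean values under 1 FPKM. Over the 6 tested neighbours 3 estimates were above and 3 below 0, with a median of 0.08 against 0.20 over all tested genes.

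Genes whose profile was most like that of Snf1a were found by the root mean square difference of log2(FPKM + 1) over the 6 libraries, each gene centred on its dsEGFP mean. The 10 nearest named genes lay at 0.206 to 0.504 from Snf1a, against a median of 2.01 over named tested genes. Their log2 fold changes, between -2.74 and -1.99, are given as a description because likeness to Snf1a chose them.

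The nearest was LOC103313963, with 8.33, 6.44 and 11.7 FPKM in dsTcAMPKα replicates 1, 2 and 3, against 53.3, 49.3 and 37.0 FPKM in dsEGFP replicates 1, 2 and 3. This gene had the same order of libraries as Snf1a within both groups. Next came LOC660719, with 1.15, 0.669 and 2.64 FPKM in dsTcAMPKα libraries, against 20.1, 11.7 and 13.6 FPKM in dsEGFP libraries. LOC103313955, the third, was close to 0 in dsTcAMPKα libraries, with 0.0141, 0.0292 and 0.138 FPKM, against 6.39, 6.27 and 4.75 FPKM in dsEGFP libraries. Of the genes with a RefSeq name, ND-B8, a subunit of mitochondrial complex I, had 19.2, 24.2 and 44.6 FPKM in dsTcAMPKα libraries, against 124, 147 and 101 FPKM in dsEGFP libraries. Sgt1, a co-chaperone of Hsp90, had 10.6, 7.52 and 6.56 FPKM in dsTcAMPKα libraries, against 41.0, 46.0 and 59.9 FPKM in dsEGFP libraries. Spz4, a relative of the Toll ligand Spätzle, had 0.0687, 0.104 and 0.558 FPKM in dsTcAMPKα libraries, against 9.68, 3.50 and 6.44 FPKM in dsEGFP libraries. These genes spanned a wide range of levels, with dsEGFP means from 3.70 to 351 FPKM, and only 1 of the 10 lies on the sequence that holds Snf1a. Of the 10, 2 shared the Snf1a order over the dsTcAMPKα libraries and 2 shared it over the dsEGFP libraries.

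**Figure D5:**
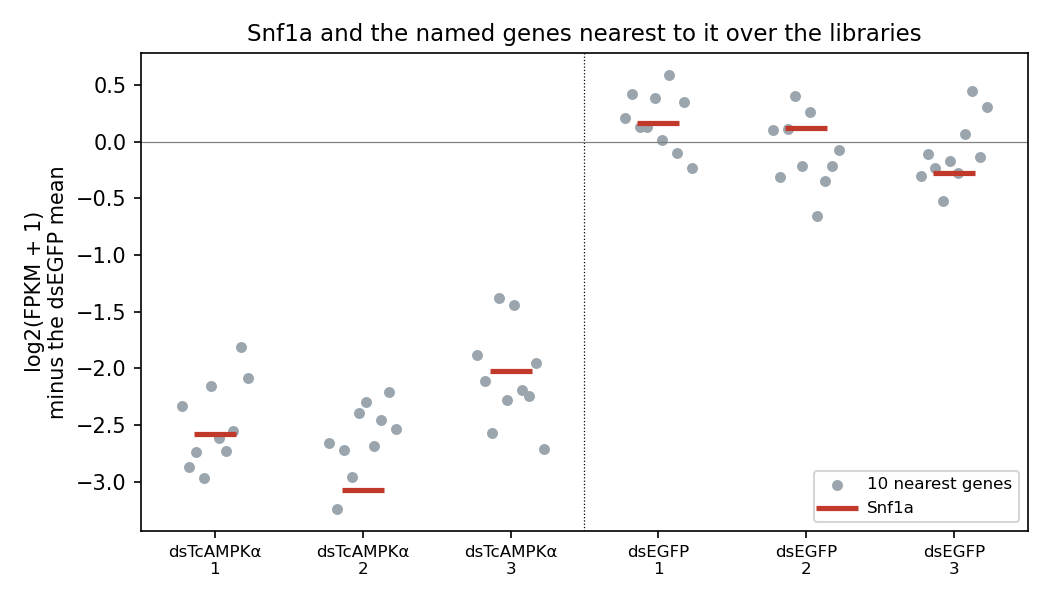
Log2(FPKM + 1) minus the dsEGFP mean in each library for Snf1a (red bars) and the 10 named genes nearest to it over the 6 libraries (grey points, set side by side within a library). All 10 genes were chosen for their likeness to Snf1a, and their dsTcAMPKα values all lie below their dsEGFP values.

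Because Snf1a differed 2.22-fold between the dsTcAMPKα libraries, the libraries were also used to ask which genes varied with it there. With 3 libraries there are 6 possible orders, and no correlation was computed. The order of Snf1a, lowest in replicate 2 and highest in replicate 3, was shared by 1552 of 10953 other genes, or 14.2%. The exact reverse was found in 1779 genes, or 16.2%, and the orders ranged from 13.9% to 23.1% of genes. The order of Snf1a was thus among the less frequent ones. A range at least as wide as that of Snf1a was found in 921 genes, 137 of them with its order, 88 with the reverse order, and 86, 128, 214 and 268 with the other orders. Of the 137 genes, 5 were called lower and 2 higher between the groups, which is 5.11% against 6.8% of all tested genes. Among genes of as wide a range in the other orders, 1.14% to 12.8% were called. Of the 88 genes 1 was called lower and 0 higher, or 1.14%.

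Between the groups, the 8 named genes nearest to Snf1a over the 3 dsTcAMPKα libraries had 3 estimates above and 5 below 0. For these genes log2(FPKM + 1) was centred on the dsTcAMPKα mean. Of the 8 nearest named genes, 1 was called lower and 0 were called higher, against 2.71% and 4.09% of all tested genes. Groups overlapped for 7 of the 8. Over all tested genes, 13.6% were lower and 31.2% higher without overlap. By choice, the 8 genes had ranges over the dsTcAMPKα libraries near that of Snf1a, while the median range of tested genes was 0.30. So wide a spread favours overlap and few calls, and these counts are no result about the 8 genes. The called gene was LOC103315174, with 0.572, 0.115 and 1.23 FPKM in dsTcAMPKα replicates 1, 2 and 3, against 9.70, 6.23 and 27.8 FPKM in dsEGFP replicates 1, 2 and 3. Its log2 fold change was -3.05 (limma, adjusted p = 0.0252). Its likeness to Snf1a over the dsTcAMPKα libraries is no result, because that likeness chose it. The nearest of all, LOC103314540, had 1.38, 0.658 and 2.49 FPKM in dsTcAMPKα libraries, against 2.44, 0.626 and 0.618 FPKM in dsEGFP libraries, and so varied as widely in the dsEGFP larvae. LOC656629, an abundant gene, had 277, 204 and 416 FPKM in dsTcAMPKα libraries, against 1001, 881 and 353 FPKM in dsEGFP libraries, with a log2 fold change of -1.24 (limma, adjusted p = 0.103). The remaining genes of the 8 were LOC103314964, LOC103312224, LOC657451, LOC662426 and LOC664603, and all had overlapping groups.

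The 8 genes nearest to the mirror image of Snf1a were highest in dsTcAMPKα replicate 2 and lowest in replicate 3. Limma called 0 of them, against 6.8% of all tested genes. Groups overlapped for 7, while 13.6% of all tested genes were lower and 31.2% higher without overlap. These 8 genes also had wide ranges over the dsTcAMPKα libraries by choice, which favours overlap and few calls. Their counts are therefore no result about them. The closest was LOC661621, with 142, 200 and 95.9 FPKM in dsTcAMPKα replicates 1, 2 and 3, against 192, 150 and 72.7 FPKM in dsEGFP replicates 1, 2 and 3. LOC100142437 had 124, 189 and 89.7 FPKM in dsTcAMPKα libraries, against 1036, 1590 and 253 FPKM in dsEGFP libraries. It was the one gene of the 8 without overlap, and its log2 fold change of -2.54 missed the limma threshold (adjusted p = 0.0503). Without dsEGFP replicate 3 it was -3.31, and the gene was called (adjusted p = 0.0075). The other genes were LOC103313968, LOC655909, LOC658060, LOC103314277, LOC657754 and LOC663230. None of the 16 genes has a name other than its identifier in RefSeq.

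A set of 19 lists, drawn from ontology terms or RefSeq symbols, described pathways that AMPK is known to act on and other genes. The others were the AMPK complex, related kinases, protein phosphorylation and dephosphorylation, and RNA silencing. The lists held 260 tested genes besides Snf1a, of which 15 were called higher and 8 lower, or 8.85% against 6.8% of all tested genes. With median-ratio scaling 15 of the 260 genes were called, 6 higher and 9 lower, with TPM 42, 38 higher and 4 lower, and after removal of the length trend 1, which was higher. Of the 23 genes called on FPKM as deposited, 14 were also called with median-ratio scaling, 19 with TPM, and 1 after removal of the length trend. Each of the 23 called genes kept its direction under all 7 alternative processings. Calls over all genes were few when a dsTcAMPKα library was left out: limma called 0 of all tested genes without dsTcAMPKα replicate 1 (2909 at an unadjusted p under 0.05) or without replicate 2 (2957), and 34 without replicate 3.

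In the TOR pathway, through which AMPK restrains growth, 27 genes of the TOR complexes and their regulators were tested. Of these 1 was called higher and 2 lower, against 4.09% and 2.71% of all tested genes. The median log2 fold change was 0.35, against 0.20 over all tested genes. S6k, the kinase of ribosomal protein S6 and a target of TOR, had 77.5, 35.9 and 43.5 FPKM in dsTcAMPKα replicates 1, 2 and 3, against 22.5, 23.6 and 21.1 FPKM in dsEGFP replicates 1, 2 and 3. Every dsTcAMPKα library was higher, as for 31.2% of tested genes, and the log2 fold change was 1.11 (limma, adjusted p = 0.0449). S6k was not called with median-ratio scaling (0.89, adjusted p = 0.0921), after removal of the length trend (0.34, adjusted p = 0.593) or without dsEGFP replicate 3. Lamtor2 and Lamtor3, parts of the Ragulator complex that holds TOR at the lysosome, fell by 1.29 and 1.06 on the log2 scale (limma, adjusted p = 0.0196 and 0.0240). Of the 6 genes with the ontology term TOR signalling, 0 were called by limma, 3 had an unadjusted p under 0.05, and limma-voom called 1. Their largest differences were 0.85 for gig, the TSC2 protein that AMPK phosphorylates in mammals, which was -0.22 after removal of the length trend, and -0.80 for LOC657326.

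The insulin pathway, which acts opposite to AMPK on stores of fuel, had 3 of 11 tested genes called higher and 0 lower. Over all tested genes 4.09% were called higher and 2.71% lower. The median log2 fold change of the pathway was 0.67, against 0.20 over all tested genes. After removal of the length trend it was 0.15, against -0.005 over all tested genes. InR, the insulin receptor, had 22.0, 19.0 and 25.5 FPKM in dsTcAMPKα replicates 1, 2 and 3, against 11.4, 8.86 and 7.15 FPKM in dsEGFP replicates 1, 2 and 3. InR rose by 1.20 on the log2 scale (limma, adjusted p = 0.0245). Chico, the insulin receptor substrate, rose by 1.14 and Pi3K92E, the catalytic subunit of phosphatidylinositol 3-kinase, by 1.09 on the log2 scale. None of these 3 genes was called with median-ratio scaling or after removal of the length trend, and chico, at 0.88, was not called without dsEGFP replicate 3. Of the 6 genes with the ontology term insulin signalling, 0 were called by limma, 4 had an unadjusted p under 0.05, and limma-voom called 1. The largest differences there were 1.73 for melt, a regulator of TOR and FOXO, and -0.85 for DENR, a translation factor. Melt was at 1.12 and called without dsEGFP replicate 3 (adjusted p = 0.0112), and DENR was called with median-ratio scaling at -1.06.

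For autophagy, which AMPK promotes, 23 genes chosen by symbol were tested, with 1 called higher and 1 lower. Over all tested genes 4.09% were called higher and 2.71% lower. The median log2 fold change of the 23 genes was 0.54, against 0.20 over all tested genes. After removal of the length trend it was 0.14, against -0.005 over all tested genes. Atg17, part of the Atg1 kinase complex, had 31.6, 29.4 and 36.3 FPKM in dsTcAMPKα libraries, against 17.0, 11.1 and 12.2 FPKM in dsEGFP libraries, and rose by 1.23 on the log2 scale (limma, adjusted p = 0.0232). Atg12, a ubiquitin-like protein of the conjugation system, had 25.9, 21.1 and 18.5 FPKM in dsTcAMPKα libraries, against 45.0, 41.0 and 55.5 FPKM in dsEGFP libraries. It fell by 1.08 on the log2 scale (limma, adjusted p = 0.0247), and without dsEGFP replicate 3 it was at -0.96 and not called. The largest estimate of the 23 genes was 1.82, in a gene that was not called. Of 24 genes with the ontology term autophagy, 17 estimates were above and 7 below 0, and 3 were called lower, namely Atg12, LOC664530 by 1.46 and cyr by 2.97 on the log2 scale, with a median of 0.18. Of 8 genes of the cellular response to starvation 0 were called by limma or limma-voom, and 2 had an unadjusted p under 0.05. The largest differences there were -0.94 for Gar1, a protein of small nucleolar ribonucleoproteins that was called at -1.19 without dsEGFP replicate 3, and 0.67 for rictor, a subunit of TOR complex 2.

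In lipid metabolism, 17 genes of fatty acid, triglyceride and sterol synthesis were tested. Their median log2 fold change was 0.65, against 0.20 over all tested genes. After removal of the length trend it was 0.09, against -0.005 over all tested genes. Of the 17, 1 was called higher, against 4.09% of all tested genes. This gene was Mondo, the transcription factor related to ChREBP that responds to sugar, with 37.3, 30.9 and 36.2 FPKM in dsTcAMPKα libraries, against 15.9, 14.2 and 15.7 FPKM in dsEGFP libraries. Mondo rose by 1.14 on the log2 scale (limma, adjusted p = 0.0178), but was not called with median-ratio scaling (0.92) or after removal of the length trend (0.50, adjusted p = 0.144). Of 17 genes of lipid breakdown and transport 1 was called higher, with a median of 0.52. This was Apoltp, a large lipid transfer particle protein of the haemolymph, with 35.8, 34.7 and 38.6 FPKM in dsTcAMPKα libraries, against 14.9, 11.4 and 10.3 FPKM in dsEGFP libraries. Its log2 fold change of 1.51 (limma, adjusted p = 0.0164) was 0.39 after removal of the length trend. The largest estimate of that list was 3.06, in a gene that was not called. This list by symbol did not hold brummer, the triacylglycerol lipase gene that the study reported as lower after the knockdown. Of 15 genes placed under isoprenoid and sterol biosynthesis by ontology term, 1 was called higher, Ccdc56 at 1.25. It was the gene of the 19 lists that stayed called after removal of the length trend. Whether it acts in that pathway was not examined. The median of that list was 0.33.

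In sugar metabolism, 20 genes of sugar and glycogen metabolism were tested. By limma 0 were called, against 6.8% of all tested genes, and limma-voom also called 0. The list held 4 genes at an unadjusted p under 0.05. Its median log2 fold change was 0.25, against 0.20 over all tested genes. The largest differences were 0.71 for Pfrx, the enzyme that makes and removes fructose 2,6-bisphosphate, and 0.69 for Ldh, lactate dehydrogenase. Of 9 genes with the ontology term glycogen metabolism 1 was called lower, against 2.71% of all tested genes. This was LOC103312150 at -1.05, and the median of the list was 0.39. Of 4 transcriptional co-regulators that AMPK or its relatives act on, 1 was called higher, against 4.09% of all tested genes. This was Sirt1, a deacetylase, at 1.45 (limma, adjusted p = 0.0405). Sirt1 was not called with median-ratio scaling (1.24, adjusted p = 0.0772) or after removal of the length trend (0.59, adjusted p = 0.250). The other values were 0.62 for Crtc, 0.62 for CrebB and 0.46 for HDAC4, with a median of 0.62.

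The remaining lists held few calls. For comparison, 4.09% of all tested genes were called higher and 2.71% lower. Of 14 genes of RNA silencing and dsRNA transport 1 was called higher, with a median log2 fold change of 0.57. This was Dcr-2, the Dicer of the small interfering RNA pathway, with 67.7, 72.9 and 84.7 FPKM in dsTcAMPKα replicates 1, 2 and 3, against 34.2, 26.5 and 34.3 FPKM in dsEGFP replicates 1, 2 and 3. Dcr-2 rose by 1.22 on the log2 scale (limma, adjusted p = 0.0211). It was not called after removal of the length trend (0.43, adjusted p = 0.299) and stayed called with median-ratio scaling at 1.01. Among the dsTcAMPKα libraries Dcr-2 did not share the Snf1a order: both were highest in replicate 3, but Dcr-2 was lowest in replicate 1 and Snf1a in replicate 2. Of 12 genes of cell polarity, which AMPK maintains in Drosophila epithelia, 1 was called higher, Moe at 1.01, which links the membrane to actin and was not called with median-ratio scaling (0.79), and the median was 0.29. Of 23 genes of protein dephosphorylation 1 was called higher, Pp2C1 at 1.40, and 1 lower, LOC656151 at -1.10, with a median of 0.43. The largest estimate among them was 1.49, in a gene that was not called. The median of the protein phosphorylation list without Snf1a was 0.51 and that of the 4 AMPK-related kinases 0.81. After removal of the length trend these 2 medians were 0.06 and 0.02. Over all 7 alternative processings the medians of the 19 lists lay between -0.11 and 1.06, and 7 of them turned negative in at least 1 processing. The value of 1.06 was found with TPM, where the median of all tested genes was 0.44. After removal of the length trend the 19 medians lay between -0.11 and 0.20, with -0.005 over all tested genes.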

How the data were processed

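RNA-Seq libraries were sorted into the dsTcAMPKα and dsEGFP groups by their sample labels, with 3 libraries each. The authors used HISAT2 for alignment to the Tcas5.2 genome, and StringTie for assembly and quantification. The submitters' processing notes also name Bowtie2 and TopHat2, and no versions are given in the sources used here. Per transcript, the deposited values are FPKM and coverage, a signal in reads per base; coverage is not scaled between libraries.

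FPKM were added up by gene name. Genes with a mean of at least 1 FPKM entered a limma fit (version 3.58.1, R 4.3.3, eBayes with trend) of log2(FPKM + 1), with Benjamini-Hochberg adjustment over all 10981 genes, and transcripts likewise over 18283. The test was checked on simulated data with noise independent between genes and libraries. That check does not cover a library that stands apart, as dsEGFP replicate 3 did. Group comparisons of a single value used exact permutation tests (scipy 1.17.1). The deposited values hold no counts, so reads were estimated as coverage times transcript length over read length, and precision is given as the spread between libraries, which held 33518139 to 37584930 estimated reads. Replicate libraries differed at nearly all tested genes, so none was a duplicate. The p-values measure the spread between pools of larvae.

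The members and gene lists were chosen with earlier results of these data known. The ontology lists came from the study's annotation table, of which the protein phosphorylation term was available in part. The AMPK, TOR, insulin, autophagy, lipid, sugar and co-regulator lists by symbol were added after the ontology lists, and 128 of 131 symbols matched the tables. Names come from RefSeq (assembly icTriCast1.1, names only), where the gene identifier of Snf1a carries the symbol AMPKalpha. Named genes are Snf1a, the 5 named genes on each side, the 10 nearest over 6 libraries, the 8 nearest over the dsTcAMPKα libraries and the 8 nearest to the mirror image, RpS3, and in each list the called genes or, with no call, those with the 2 largest differences. All genes of the 4-gene symbol lists are named. A planned ranking of kinases by protein sequence was not run because no protein sequences were used here, and the AMPK-related kinases were named by symbol in its place.

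As alternatives, a pseudocount of 0.1 FPKM, no filter, median-ratio, quantile or TPM scaling, removal of a length trend (lowess, span 0.4), limma-voom on estimated reads, and the omission of each library were tried.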

Additional observations from a re-analysis of the deposited data

How the results depend on the processing

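Snf1a kept its direction and its call under all 7 alternative processings, with log2 fold changes from -2.94 (limma-voom) to -2.33 (TPM). Relative to the median of all tested genes, the change was -2.75 in the reported fit and -2.75 to -2.91 in the alternatives. With each of the 6 libraries left out in turn it ranged from -2.83 to -2.30 for the gene, from -2.83 to -2.24 for the annotated transcript and from -1.88 to -1.52 for the assembled transcript, which passed with median-ratio scaling at -1.73 and without dsEGFP replicate 3 at -1.81 (adjusted p = 0.0292). The annotated transcript lost its call without dsEGFP replicate 1 or 2 or dsTcAMPKα replicate 1 or 2, with adjusted p between 0.0202 and 0.121 over the libraries left out. The mean remaining share was 15.0% to 17.4% with a dsEGFP library left out and moved to 24.7% relative to RpS3.

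Counts over all genes were less stable. Against 747 genes called, 449 higher and 298 lower, TPM gave 1619 (1400 higher, 219 lower), removal of the length trend 121 (46 higher, 75 lower), median-ratio scaling 597 (168 higher, 429 lower), quantile normalization 556 (234 higher, 322 lower) and limma-voom 622 (167 higher, 455 lower). Leaving out libraries gave 0 to 1198: limma called 0 genes without dsTcAMPKα replicate 1 (2909 at an unadjusted p under 0.05) and 0 without replicate 2 (2957), 34 without replicate 3, 77 without dsEGFP replicate 2 and 1198 without dsEGFP replicate 3. The cause was not tested. Of the neighbours, 0 were called with median-ratio scaling (2 at an unadjusted p under 0.05) and 0 after removal of the length trend (1 at an unadjusted p under 0.05), and limma-voom called 0. TPM called 2 neighbours (SIFa and hop) and quantile normalization 1 (SIFa). Of the 260 list genes, 23 were called (15 higher, 8 lower), against 15 (6 higher, 9 lower) with median-ratio scaling, 1 (1 higher) after removal of the length trend and 42 (38 higher, 4 lower) with TPM. The share of genes with the Snf1a order was 15.6% with median-ratio scaling and 15.2% without the length trend, against 14.2%. No paired analysis was done, because the sample labels carry no replicate numbers shared by the groups. Values listed at 0 limit the calls of low transcripts.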
